A study of Mus musculus with 8 samples.

Results

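The genes described here are genes of centrosomes, centrioles, cilia and the spindle, and not all of them act at spindle poles. They are the centrosomal proteins named Cep with a number, the 8 augmin subunits (Haus1 to Haus8), the Tubgcp components of the gamma-tubulin ring complex, and Tubg1, Pcnt, Nedd1, Numa1, Tpx2, Tacc3, Ckap5, Cdk5rap2, Clasp1, Clasp2, Mapre1 and Prc1. They were chosen by symbol alone, on probe sets that the platform annotation gives 1 symbol, and each gene was represented by its brightest probe set, judged by the mean of the 8 arrays. This gave 62 genes of 18193 measured. Of these, 61 code for protein and 1, Cep83os, is a long noncoding RNA that the naming pattern takes in. By the roles assigned here, 7 belong to the gamma-tubulin ring complex, 8 to augmin and 12 to the pericentriolar material. A further 27 are other Cep genes of centrioles and cilia, and 8 bind microtubules at or near the spindle.

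The series compares fully grown oocytes with an intact germinal vesicle, the nucleus of the arrested oocyte, from 4 mice labelled Dicer knockout and 4 wild-type mice. All were females of a mixed 129/C57BL6 background that had received eCG, a gonadotropin that stimulates follicle growth. Cumulus cells, the somatic cells around the oocyte, were removed by pipetting, and 20 oocytes of each mouse gave the RNA for 1 Affymetrix array, after 2 rounds of amplification. Dicer cleaves longer double-stranded or hairpin RNAs into short interfering RNAs and microRNAs. The ages of the mice, the deleted Dicer1 exons and any Cre driver are not given in the sources used here.

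Animal cells usually nucleate spindle microtubules at centrosomes, in which a pair of centrioles is surrounded by pericentriolar material that holds gamma-tubulin ring complexes. Mouse oocytes have no centrioles by the time they are fully grown. They carry acentriolar microtubule organising centres instead, which hold pericentrin, gamma-tubulin and other pericentriolar proteins and come together into spindle poles when meiosis resumes. Augmin binds the sides of existing microtubules and brings gamma-tubulin ring complexes there, so that new microtubules branch off inside the spindle.

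Values are log2 signals of the arrays, and a difference is the mean of the knockout arrays minus that of the wild-type arrays. A gene is said to have risen or fallen where limma's adjusted p, over all 45037 probe sets tested, was under 0.05. Array medians lay between 6.35 and 6.43. The targeted gene, Dicer1, read 14.26 to 14.36 on the knockout arrays and 13.04 to 13.31 on the wild-type arrays in its brighter probe set, and 12.11 to 12.38 and 11.39 to 11.79 in the other, so it was higher in the samples labelled knockout. Since the deleted exons are not given, neither probe set checks the genotype. Wild-type array 1 stands apart: of 494 genes at least 2-fold higher in knockout in a fit without it, it was the highest wild-type array in 75.9%, against 10.2% to 14.5% for each other wild-type array on genes chosen the same way without it.

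Of the 62 genes, 16 fell and 6 rose in knockout oocytes, together 35.5% (limma, adjusted p under 0.05). Over all genes, 12.8% fell, 8.18% rose and 21% did either. At an adjusted p under 0.01, 10 of the 62 fell and 3 rose, against 6.72% and 4.42% of all genes. Falls of at least 2-fold were found in 2 of the 62 and rises of that size in 1, against 2.04% and 2.36% of all genes. A mean signal of at least 6 was found in 59 of the 62 genes and in 13478 of all 18193. Among genes at that level, 28.4% passed (17.6% lower and 10.8% higher in knockout), against 37.3% of the 59 (27.1% lower and 10.2% higher). The median difference of the 62 genes was -0.05, and that of all genes was 0.00. The 4 knockout values lay wholly on one side of the 4 wild-type values in 24 of the 62 genes, all 22 that passed among them, against 26.2% of all genes.

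**Figure D1:**
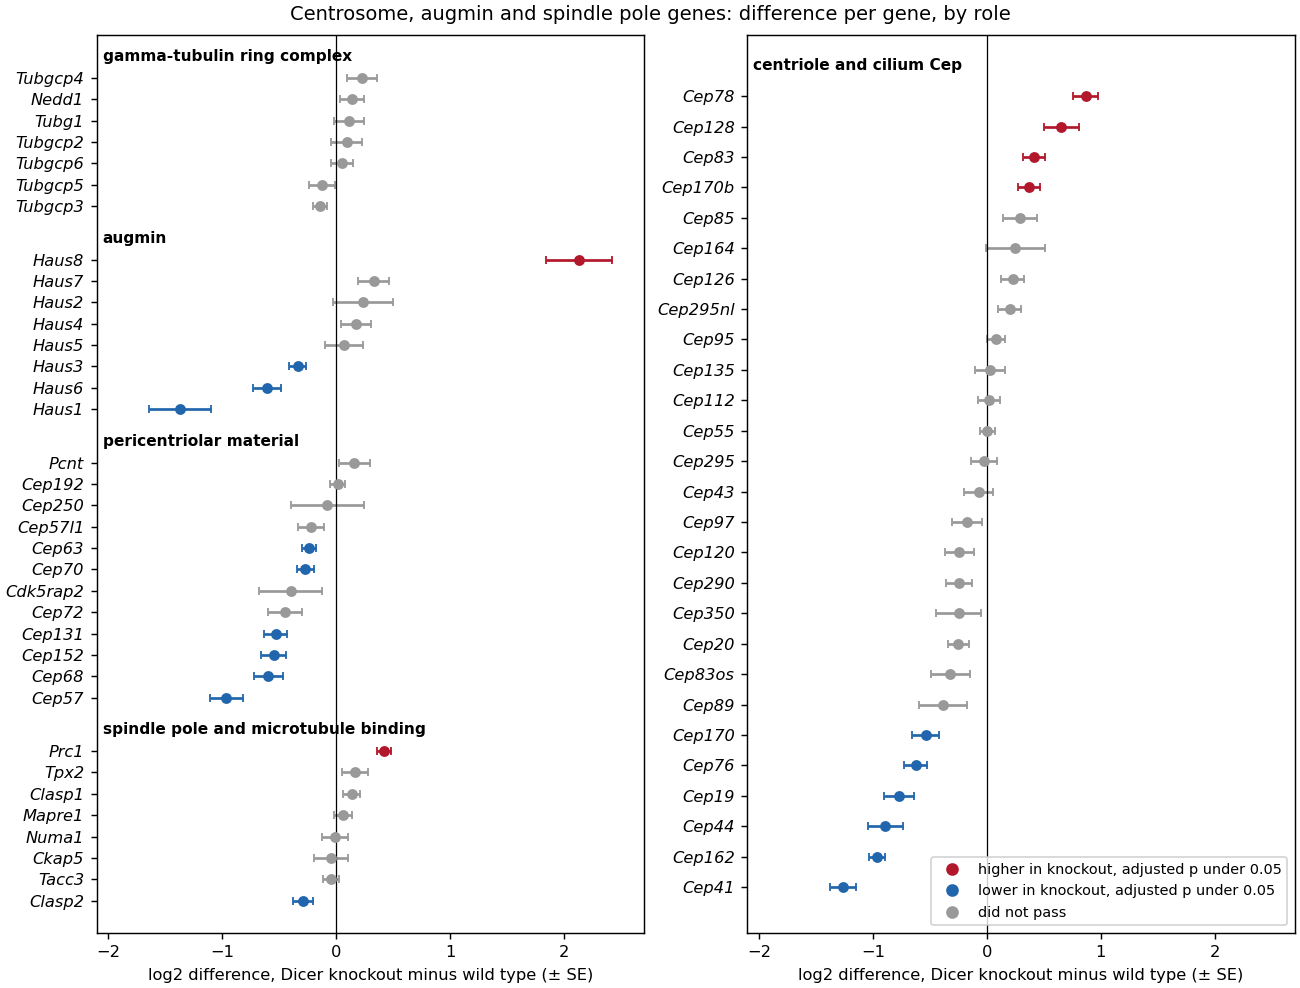
Difference in log2 signal, Dicer knockout minus wild type, for each of the 62 genes, grouped by role; points are differences of group means over 4 arrays each, bars are the moderated SE, and colour marks the genes that passed. None of the 7 gamma-tubulin ring complex genes is coloured (21% of all genes passed), while Haus8 at 2.13 and Haus1 at -1.37 mark both ends of the scale.

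Augmin held both the largest rise and the largest fall. Haus8, the subunit that binds microtubules in human cells, rose 4.37-fold, while Haus1 fell 2.59-fold, Haus6 1.52-fold and Haus3 1.27-fold. The other subunits, Haus2, Haus4, Haus5 and Haus7, did not pass. Thus 37.5% of the 8 fell and 12.5% rose, against 12.8% and 8.18% of all genes. Among all genes with a mean signal of at least 6, the shares were 17.6% and 10.8%. The 300-base windows around the start sites of 2 of these genes and of Prc1 are shown, since the subunits of one complex went opposite ways and Prc1 rose in both of its probe sets. They come from RefSeq (GRCm38.p6) and run from 250 bases before the start to 50 after it. Capitals mark the letters CCAAT and TTTGAA, on either strand, which are discussed with the promoters of all the genes further on.
Haus8, chr8:71272541-71272840, minus strand: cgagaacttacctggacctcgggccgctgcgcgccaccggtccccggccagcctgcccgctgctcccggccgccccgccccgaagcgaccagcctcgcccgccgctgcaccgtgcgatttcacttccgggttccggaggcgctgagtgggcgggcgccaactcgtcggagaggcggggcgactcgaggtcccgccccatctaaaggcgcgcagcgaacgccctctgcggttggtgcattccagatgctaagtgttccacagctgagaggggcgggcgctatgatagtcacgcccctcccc
Haus6, chr4:86612006-86612305, minus strand: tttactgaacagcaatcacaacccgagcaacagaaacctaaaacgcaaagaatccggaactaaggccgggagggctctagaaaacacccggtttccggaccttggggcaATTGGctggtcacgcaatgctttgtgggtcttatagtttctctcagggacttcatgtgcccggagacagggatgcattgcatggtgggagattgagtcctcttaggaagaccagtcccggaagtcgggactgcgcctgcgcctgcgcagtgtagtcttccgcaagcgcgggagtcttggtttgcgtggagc
Prc1, chr7:80294201-80294500, plus strand: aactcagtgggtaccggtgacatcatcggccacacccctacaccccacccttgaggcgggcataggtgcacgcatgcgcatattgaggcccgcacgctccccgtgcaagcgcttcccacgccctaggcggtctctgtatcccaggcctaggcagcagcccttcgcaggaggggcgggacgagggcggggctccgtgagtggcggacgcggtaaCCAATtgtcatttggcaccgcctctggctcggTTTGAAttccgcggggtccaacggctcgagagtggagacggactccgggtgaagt

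Haus8 read 11.18, 11.39, 11.19 and 11.13 on the knockout arrays, against 9.90, 9.24, 8.19 and 9.06 on the wild-type arrays. The knockout arrays lay close together, whereas the wild-type arrays were far more spread, with array 1 highest and array 3 lowest. The means were 11.22 ± 0.117 in knockout and 9.10 ± 0.702 in wild type (SD, n = 4 each), a difference of 2.13 ± 0.288 (SE, adjusted p = 0.00103 in limma). Without wild-type array 1 the difference was 2.40, and without wild-type array 3 it was 1.83. Haus8 has 1 probe set.

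Haus1, a core augmin subunit, read 9.03, 8.80, 8.46 and 8.95 in knockout, against 10.60, 10.07, 9.34 and 10.72 in wild type. Groups did not overlap, but wild-type array 3 lay nearer to the highest knockout array than to the other wild-type arrays. The difference was -1.37 ± 0.275 (SE, limma adjusted p = 0.00834), and -1.65 without wild-type array 3. Haus6, which links augmin to Nedd1 and the gamma-tubulin ring complex in human cells, read 9.13, 8.68, 8.91 and 9.0 in knockout and 9.66, 9.65, 9.26 and 9.56 in wild type. Array 3 was again the lowest wild-type array, and the difference was -0.61 ± 0.121 (limma adjusted p = 0.00808). Haus3 fell by 0.34 (limma adjusted p = 0.0148), with group means of 12.86 ± 0.11 in knockout and 13.20 ± 0.057 in wild type (SD, n = 4 each).

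Haus7 had 1 overlapping pair of values, with 10.23 to 10.75 in knockout and 9.79 to 10.25 in wild type, and its difference of 0.33 did not pass (limma adjusted p = 0.143). The remaining subunits had differences of 0.07 for Haus5, 0.18 for Haus4 and 0.23 for Haus2. Their 95% intervals were -0.30 to 0.44, -0.12 to 0.47 and -0.35 to 0.82. All leave room for a rise as large as the Haus3 fall, but only the Haus2 interval reaches a fall of that size. The augmin genes therefore did not move as a block: the median over the 8 was 0.12, with 5 differences above zero and 3 below it.

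**Figure D2:**
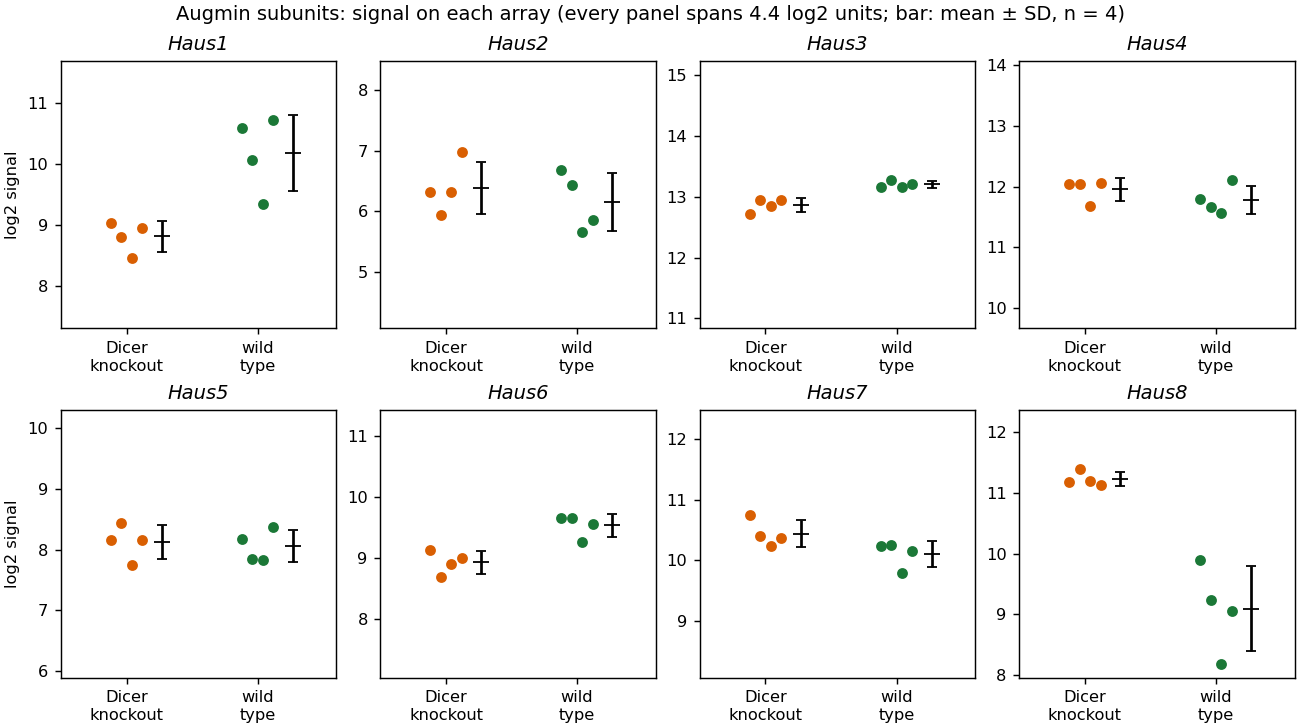
Log2 signal of the 8 augmin subunits on each array, Dicer knockout left and wild type right in each panel; points are arrays and bars are the mean ± SD of 4. Haus8 sits between 11.13 and 11.39 on all knockout arrays and between 8.19 and 9.90 on the wild-type arrays, and Haus1 shows the opposite arrangement.

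None of the 7 gamma-tubulin ring complex genes passed, with differences between -0.14 and 0.22 and adjusted p of 0.173 or more in limma. Of all genes, 21% passed, and of those with a mean signal of at least 6, 28.4%. A group of 7 genes is too small to show whether it differs from those shares. At an unadjusted p under 0.05, 1 of them, Tubgcp3, was lower in knockout. Tubg1, the gamma-tubulin of dividing cells, read 9.09, 9.47, 8.97 and 8.97 in knockout, against 9.02, 8.76, 9.18 and 9.10 in wild type. The arrays of both groups were mixed in order. The difference was 0.11 ± 0.132 (SE), with a 95% interval of -0.19 to 0.40. Nedd1, the adaptor that ties the ring complex to spindle and centrosome, read 11.64, 11.94, 11.97 and 11.90 in knockout and 11.54, 11.92, 11.71 and 11.73 in wild type, a difference of 0.14 (interval -0.10 to 0.37). The ring complex protein genes Tubgcp2, Tubgcp4, Tubgcp5 and Tubgcp6 had differences of 0.09, 0.22, -0.13 and 0.05. Tubgcp3 read 6.55 to 6.62 in knockout and 6.67 to 6.74 in wild type. These groups did not overlap, but the difference of -0.14 was small and did not pass (limma adjusted p = 0.173). Of the 3 Tubgcp4 probe sets, a dim one with group means of 4.04 in knockout and 3.75 in wild type rose by 0.29 (limma adjusted p = 0.0214).

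Among the 12 genes assigned here to the pericentriolar material, 6 fell (50%) and 0 rose, and the median difference was -0.34. The assignment was made with earlier results of these data known. It also takes in proteins of the linker between centrioles and of centriolar satellites, so the share depends on where the group is drawn. Of all genes, 12.8% fell and 8.18% rose, and of those with a mean signal of at least 6, 17.6% and 10.8%. At an unadjusted p under 0.05 in limma there was also no rise in this group. The genes that fell were Cep57, Cep68, Cep152, Cep131, Cep70 and Cep63. The scaffold genes best known from oocyte organising centres, Pcnt and Cep192, were not among them.

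Cep57, which binds microtubules and tethers pericentriolar material, read 9.10, 8.94, 9.09 and 9.41 in knockout, against 10.36, 10.28, 9.87 and 9.88 in wild type. All knockout arrays lay below all wild-type arrays, by 0.96 ± 0.142 on average (SE, limma adjusted p = 0.00162), or 1.95-fold. Its second probe set fell by 0.99. Cep152, which brings the kinase Plk4 to centrioles, fell by 0.55 (7.87 ± 0.0799 in knockout and 8.42 ± 0.215 in wild type, SD, n = 4 each). Cep63, its binding partner, fell by 0.24, with 9.72 to 9.81 in knockout and 9.996 to 10.02 in wild type. That is a small difference between tight groups, and it missed the threshold when any 1 array was left out (adjusted p of up to 0.0697 in limma). Cep68, of the linker between centrioles, fell by 0.60 and Cep131, of centriolar satellites, by 0.53. Cep70, which associates with gamma-tubulin, fell by 0.27, and its call was lost in 7 of the 8 fits that left out 1 array. Cep72, a satellite protein, was nearest to the threshold among the genes that did not pass (difference -0.45, limma adjusted p = 0.0762), and passed without knockout array 1 (-0.55, adjusted p = 0.0432).

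Pcnt, the large scaffold of organising centres, read 11.98, 12.25, 11.77 and 11.79 in knockout and 11.88, 11.67, 11.56 and 12.05 in wild type. The groups overlapped, and the difference was 0.16 (95% interval -0.15 to 0.46). Cep192, which recruits Aurora A and Plk1 to spindle poles, had almost the same values in both groups. It read 10.56, 10.51, 10.53 and 10.64 in knockout and 10.58, 10.60, 10.51 and 10.50 in wild type, a difference of 0.01 with an interval of -0.14 to 0.16. Cdk5rap2, which activates the gamma-tubulin ring complex, turned on a single array. It read 10.39 on knockout array 1 but 9.20, 9.08 and 9.08 on the other knockout arrays, against 10.09, 9.83, 9.55 and 9.89 in wild type. With all arrays the difference of -0.40 did not pass (limma adjusted p = 0.389), and without knockout array 1 it was -0.72 and passed (adjusted p = 0.00657).

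Of the 27 other Cep genes, 6 fell (22.2%) and 4 rose (14.8%), against 12.8% and 8.18% of all genes. Among all genes with a mean signal of at least 6, 17.6% fell and 10.8% rose. Cep41, known in human cells for bringing the tubulin glutamylation enzyme into cilia, read 10.55, 10.58, 10.33 and 10.46 in knockout, against 11.67, 11.70, 11.53 and 12.06 in wild type. The gap between the groups was wider than the range of either, and the difference was -1.26 ± 0.116 (SE, limma adjusted p = 0.000124), or 2.39-fold lower in knockout. Cep162, which anchors the ciliary transition zone to the axoneme, had the lowest adjusted p of all 62 genes. It read 8.20, 8.23, 8.12 and 8.10 in knockout and 9.14, 9.01, 9.13 and 9.22 in wild type, a difference of -0.96 ± 0.073 (limma adjusted p = 4.27e-05). Both groups were tight and far apart.

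Cep44, which acts in the conversion of centrioles to centrosomes, read 8.74, 8.79, 8.74 and 8.59 in knockout, against 9.83, 9.90, 9.12 and 9.55 in wild type. Here the knockout arrays were alike and wild-type array 3 was again the lowest of its group. The difference was -0.89 ± 0.156 (limma adjusted p = 0.00419). Cep19, a protein of ciliogenesis, read 7.91, 7.71, 7.74 and 7.88 in knockout and 8.96, 8.59, 8.28 and 8.48 in wild type, a fall of 1.70-fold (limma adjusted p = 0.00398). Cep76, which restrains centriole reduplication, fell by 0.62, and Cep170, of the subdistal appendages of the mother centriole, by 0.54.

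Cep78, a centriole protein needed for cilia, rose 1.82-fold. It read 10.64, 10.44, 10.66 and 10.76 in knockout, against 9.82, 9.48, 9.77 and 9.96 in wild type. The lowest knockout array stood above the highest wild-type array, and the difference was 0.87 ± 0.112 (SE, limma adjusted p = 0.000808). Cep128, another subdistal appendage protein, read 10.33, 10.42, 10.30 and 10.81 in knockout and 9.76, 10.19, 9.61 and 9.67 in wild type, a rise of 1.57-fold (limma adjusted p = 0.0172). Its call was lost without wild-type array 4 (adjusted p = 0.0513). It was also lost without probe sets whose suffix marks shared sequence (difference 0.57, limma adjusted p = 0.0965). Of its 4 probe sets, 2 passed, and both carry such a suffix. Cep83, a distal appendage protein, read 10.83, 10.82, 10.65 and 10.79 in knockout and 10.43, 10.56, 10.21 and 10.24 in wild type, or 1.33-fold higher (limma adjusted p = 0.0156). A Cep83 probe set nearly as bright differed by -0.01 (10.22 in knockout and 10.24 in wild type), and the remaining probe set did not pass either. The noncoding Cep83os did not pass (difference -0.32). Cep170b, a paralogue of Cep170, read 12.04, 12.02, 12.14 and 12.13 in knockout and 11.87, 11.87, 11.55 and 11.55 in wild type. The difference of 0.37 passed with all arrays (limma adjusted p = 0.0279) and missed the threshold in 5 of the 8 fits that left out 1. In their brightest probe sets, Cep170 and Cep170b thus moved in opposite directions, as did the appendage genes Cep128 and Cep83 against Cep170. A dimmer Cep170 probe set, at 5.73 in knockout and 5.62 in wild type, differed by 0.11 and did not pass.

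The other 17 Cep genes had differences between -0.39 and 0.29. Cep20 was the nearest of them to the threshold, with non-overlapping groups of 9.49 to 9.66 in knockout and 9.70 to 10.05 in wild type (difference -0.25, limma adjusted p = 0.102). Over all 37 genes with Cep and a number in the name, 12 fell (32.4%) and 4 rose (10.8%), with a median of -0.24. Among the other 25 genes, 4 fell (16%) and 2 rose (8%), with a median of 0.07. Of all genes, 12.8% fell and 8.18% rose, and of those with a mean signal of at least 6, 17.6% and 10.8%. The shares of the other 25 thus lie near those of all genes.

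Of the 8 microtubule-binding spindle genes, 1 rose and 1 fell (12.5% each), and 6 did not pass. Of all genes, 8.18% rose and 12.8% fell. Prc1, which cross-links antiparallel microtubules in the spindle midzone, read 14.43, 14.35, 14.45 and 14.40 in knockout, against 14.04, 13.97, 13.96 and 13.99 in wild type. Both groups were narrow, and the difference was 0.42 ± 0.0633 (SE, limma adjusted p = 0.00187), or 1.34-fold. Its other probe set rose by 0.69. Clasp2, which stabilises microtubule plus ends, fell by 0.29 with an adjusted p of 0.0482 in limma, which rose above the threshold when any 1 array was left out (0.0512 to 0.111). Its paralogue Clasp1 had a difference of 0.13 (limma adjusted p = 0.271).

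Numa1, which focuses poles together with dynein, read 11.16, 11.03, 11.19 and 11.18 in knockout, against 11.34, 11.32, 10.83 and 11.11 in wild type. Tpx2, the activator of Aurora A on spindle microtubules, read 11.77, 12.12, 11.76 and 11.86 in knockout and 11.58, 11.59, 11.72 and 11.96 in wild type. In both genes the groups overlapped, and the differences were -0.01 (95% interval -0.27 to 0.25) and 0.16 (-0.09 to 0.42). Tacc3 and the microtubule polymerase Ckap5, which work as a complex, also overlapped. Tacc3 read 13.46, 13.46, 13.39 and 13.35 in knockout and 13.42, 13.38, 13.56 and 13.49 in wild type. Ckap5 read 9.89, 10.26, 10.22 and 10.14 in knockout and 9.88, 10.20, 10.02 and 10.60 in wild type. Each differed by -0.05, with intervals of -0.21 to 0.11 for Tacc3 and -0.39 to 0.30 for Ckap5. Mapre1, the plus-end protein EB1, differed by 0.06.

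**Figure D3:**
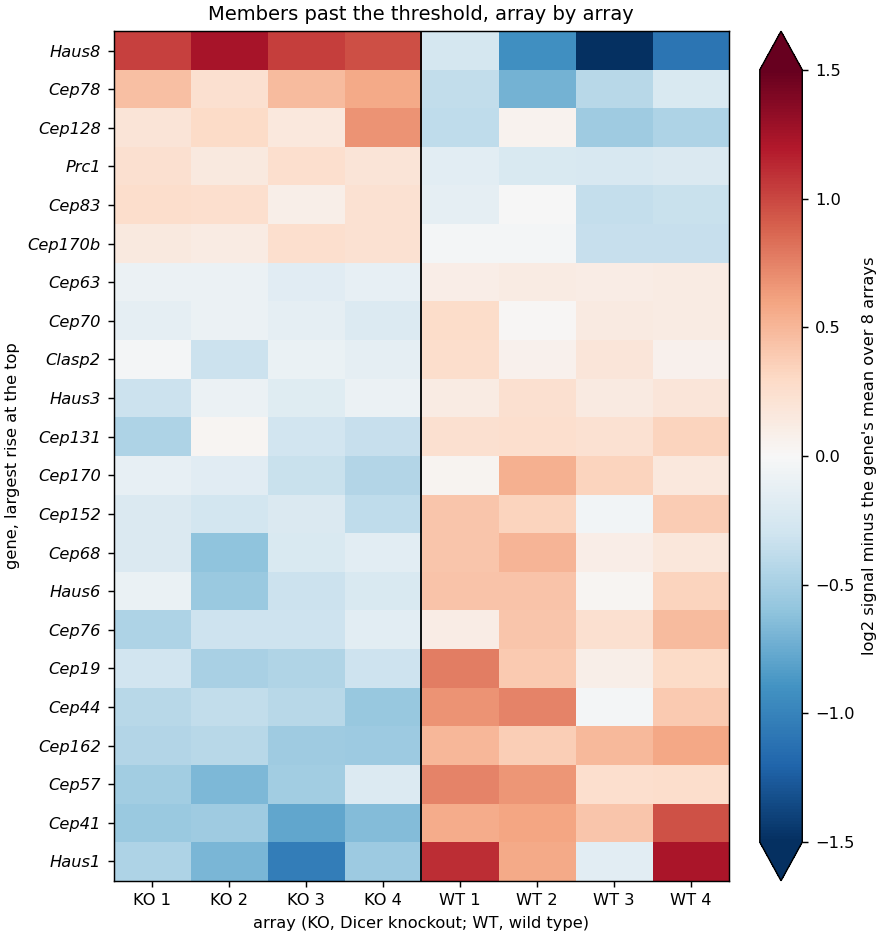
Log2 signal of the 22 genes that passed, on each array, minus the gene's mean over the 8 arrays, with knockout arrays left of the line and wild-type arrays right of it (colours saturate at 1.5). Haus8 has the deepest contrast among the 6 rises, and wild-type array 3 is pale in several of the 16 falls, such as Haus1 and Cep44.

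Wild-type array 3 was the lowest wild-type array in 9 of the 16 genes that fell, against 36.2% of all genes that fell. The mean over the 62 genes was 9.59 on that array and between 9.76 and 9.78 on the rest of its group, while the knockout arrays lay between 9.56 and 9.66. Without wild-type array 3, 13 genes fell and 5 rose. Without wild-type array 1, 13 fell and 6 rose. Every one of the 22 calls had an exact two-sided permutation p of 0.0286, the smallest that 4 against 4 arrays allow.

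Other probe sets of the same genes gave a mixed picture. Of the 138 probe sets of the 62 genes, 29 were lower in knockout (21.0%) and 11 higher (7.97%), against 10.9% and 7.53% of all probe sets with 1 symbol. Of the 22 genes that passed, 8 have 1 probe set. Of the other 14, 8 passed the same way in a second probe set, 0 passed the opposite way in one, and 5 had a further probe set of opposite sign that did not pass (Cep170, Cep41, Cep63, Cep83 and Clasp2). Cep41 fell in 3 of its 4 probe sets, by 0.61, 1.26 and 1.42.

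Of 25 genes with several probe sets whose brightest did not pass, 8 had a dimmer probe set that did. The same share over all genes was not counted. Mapre1 rose by 0.997 in 1 of 5 probe sets (9.28 in knockout and 8.28 in wild type), while its brightest, at 13.40 and 13.34, did not pass. Cep97, a partner of CP110 at the centriole tip, rose by 0.91 in 1 of 4 (6.41 in knockout and 5.50 in wild type), and Tubgcp4 was given above. In the other direction, Tacc3 fell by 0.62, Tpx2 by 0.40, Cdk5rap2 by 0.84 and Cep350 by 0.26 in 1 probe set each, and Cep89 in 2, by 0.59 and 0.81. Which transcript ends or isoforms these probe sets read was not analysed here.

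**Figure D4:**
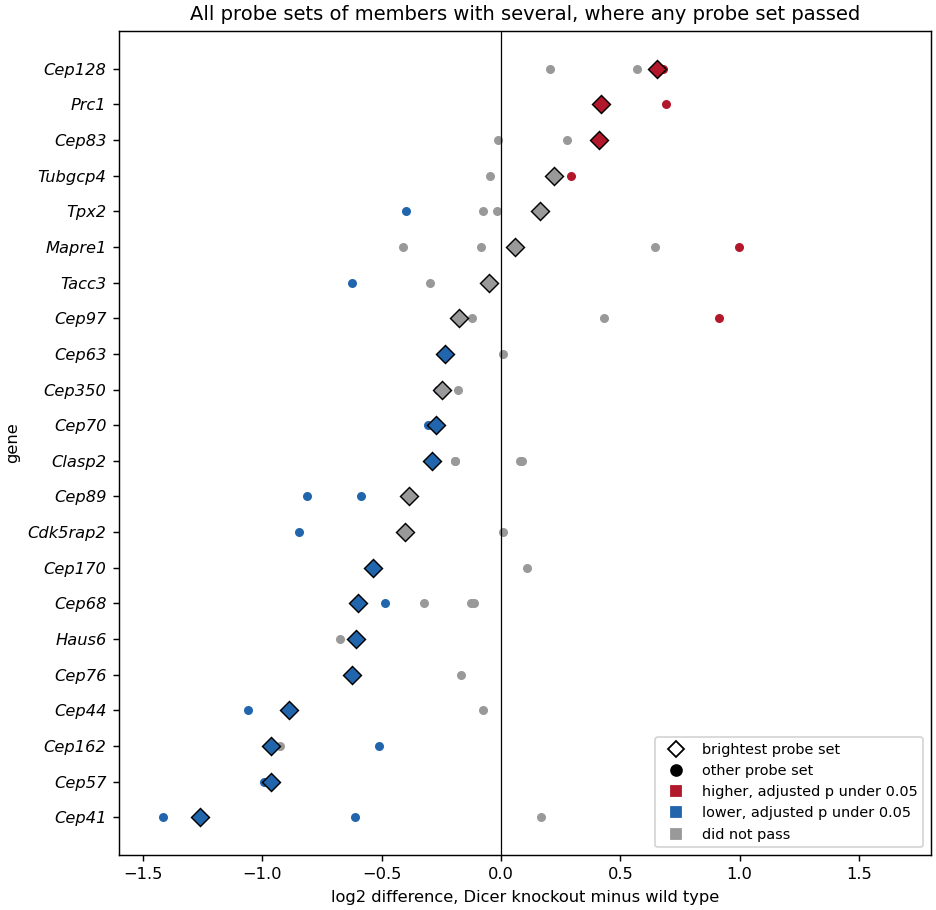
Log2 difference, Dicer knockout minus wild type, for every probe set of the 22 genes that have several probe sets and at least 1 that passed; diamonds are the brightest probe set of each gene, circles the others, and colour gives the call. Cep57, Cep70 and Prc1 are coloured in all their probe sets, while Mapre1 spreads from -0.41 to 0.997.

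Of 50 further genes of centrosomes, centrioles and spindle assembly that the naming rule does not take in, 9 fell (18%) and 6 rose (12%). These shares lie near those of all genes with a mean signal of at least 6, of which 17.6% fell and 10.8% rose. Those that fell with the lowest p were Sclt1, a distal appendage protein (log2 difference -1.58, limma adjusted p = 1.11e-05), the centrin gene Cetn4 (-1.05) and Cenpj, which sets centriole length (-0.48). Those that rose were led by Rttn, which acts in centriole assembly (2.08-fold), Dlgap5, a spindle protein (1.57-fold), and Sass6, which forms the centriole cartwheel (3.02-fold). Tubg2, the second gamma-tubulin gene, and the kinases Aurka, Plk1 and Plk4 did not pass.

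Some markers of the cells around the oocyte differed between the genotypes. Of 19 cumulus and granulosa markers measured, 9 fell and 0 rose (limma, with 0 higher at an unadjusted p under 0.05 as well), against 12.8% and 8.18% of all genes. The 9, with their log2 differences, were Cyp11a1 (-1.57), Inhbb (-1.18), Fst (-1.10), Inha (-0.996), Npr2 (-0.91), Hsd17b1 (-0.80), Greb1 (-0.68), Fshr (-0.50) and Nr5a2 (-0.44). The count was 5 without knockout array 3 and 6 without wild-type array 1. The 10 that did not pass, Amh, Foxl2 and Kitl among them, had differences between -0.67 and 0.08. The summed linear signal of the 19 was 5545 to 7348 on the knockout arrays and 8503 to 12554 on the wild-type arrays, without overlap. Such a sum follows its brightest genes and includes the 9 that fell, so it is not a separate result. Of 15 oocyte markers, 4 fell and 1 rose. Those that fell were Figla (-0.61), Kit (-0.37), Mos (-0.36) and Ooep (-0.24), and Ddx4 rose by 0.89. The other 10, which include Zp1, Zp2, Zp3 and Gdf9, had differences between -0.07 and 0.18, and the summed signal of the 15 was 189157 to 197488 in knockout and 193701 to 201544 in wild type. Of 13 theca, stroma, vessel and blood markers, the endothelial genes Tek (-0.78) and Kdr (-0.54) fell and the macrophage gene Cd68 rose by 1.16. The endothelial genes Pecam1 (-0.32) and Cdh5 (-0.06) and the leukocyte gene Ptprc (-0.03) did not pass. All 10 that did not pass had differences between -0.32 and 0.27. The summed signal of the 13 was 1485 to 1654 in knockout and 1620 to 1751 in wild type. The part of other cell types in the falls described here was not tested, and fewer cells of a type cannot be told apart from less RNA per cell. RNA ends, read as the 3′ minus 5′ log2 signal of the control probe sets, were 2.14 ± 0.145 in knockout and 2.32 ± 0.274 in wild type for actin, and 2.82 ± 0.153 and 2.96 ± 0.0817 for Gapdh (SD, n = 4 each, exact two-sided permutation p = 0.257 and 0.143).

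The start-site windows in RefSeq (GRCm38.p6) covered 51 of the 62 genes with 62 windows. Their median GC content was 62.2%, against 52.7% over all 32851 windows. CCAAT, the box bound by NF-Y, stood on either strand in 45.2% of them, against 37.4% of all windows. TTTGAA, the letters of the cell cycle homology region known from genes of late cell division, stood in 25.8% against 17.9%. GGCGGGAA, a form of the E2F site, stood in 11.3% against 2.19%. No motif contains another, and each was counted on its own. By outcome, CCAAT was found in 1 of 6 genes that rose, 8 of 14 that fell and 16 of 31 that did not pass. For TTTGAA these counts were 1, 3 and 9, and for GGCGGGAA they were 0, 3 and 4. Of the windows printed above, that of Haus8 holds none of the 3 motifs, that of Haus6 holds CCAAT once, and that of Prc1 holds CCAAT and TTTGAA. These matches describe the letters in the windows only.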

How the data were processed

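The authors deposited log2 signals, 1 per probe set, for 8 Affymetrix mouse arrays; per the submitters' processing notes they used RMA and Partek. Versions are not given in the sources used here. Low signals are compressed by RMA, so differences of dim probe sets understate those of the RNA, and 2 rounds of amplification favour 3′ ends. The table had 45101 probe sets, 64 of them controls, and 0 missing values. Each sample is 1 mouse per the labels, and the genotype label set the groups.

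Gene symbols came from the platform annotation (34945 with 1 symbol, 932 with several, 9160 with none listed), and all 62 genes matched the RefSeq gene table of GRCm38.p6. The fit was limma 3.58.1 in R 4.3.3 (lmFit, eBayes, no covariates), knockout minus wild type, with Benjamini-Hochberg adjustment over 45037 probe sets. SEs and 95% intervals are moderated. The fit was tested on simulated data. The number of arrays limits the precision.

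All genes past the threshold are named, with values per array for the 6 largest rises and falls and 10 core genes. The 2 genes nearest the threshold are named too, with the 3 lowest p in each direction from the further centrosome list. Any further gene was named with its values already in view. The gene set, roles and lists were chosen with earlier results of these data known.

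The alternatives tried were leaving out dim probe sets, other scalings and variance models, array weights, a block, other probe set choices and leaving out each array.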

Additional observations from a re-analysis of the deposited data

Results flagged for a closer look

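In 80 sets of 4 values (the named genes, list means and RNA end measures, in each group), the highest and the lowest array were compared with their neighbours, as the gap between them divided by the range of the 4. The gap exceeded Dixon's 95% critical value in 4 sets, where about 1 in 20, or 4, do so by chance. Cdk5rap2 read 10.39 on knockout array 1 and 9.08 to 9.20 on the other knockout arrays, and leaving that array out moved its difference to -0.72, past the threshold (limma adjusted p = 0.00657). Cep68 read 8.01 on knockout array 2 and 8.39 to 8.46 on the other knockout arrays, and Numa1 read 11.03 on the same array and 11.16 to 11.19 on the others. The mean over the 62 genes was 9.59 on wild-type array 3 and between 9.76 and 9.78 on the rest of its group. The cause of these values was not tested.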

How the results depend on the processing

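Of the 22 calls, 14 kept direction and threshold in every alternative that measured the gene, and 17 did so whichever array was left out. Leaving out single arrays gave 4 to 6 rises and 13 to 15 falls. At an adjusted p under 0.01, 3 genes rose and 10 fell (4.42% and 6.72% of all genes). The calls of Clasp2, Cep63, Cep70, Cep170b and Cep128 ended in some fits with fewer arrays, and those of Cep170 (-0.21), Cep83 (0.22) and Haus6 (-0.64) with the mean of all probe sets of a gene. Without probe sets whose suffix marks shared sequence, 58 genes were measured, of which 4 rose and 17 fell, Tacc3 among the falls (-0.62). Prc1 was not measured there, since all its probe sets carry such a suffix, and Cep128 lost its call (0.57, limma adjusted p = 0.0965). With a replicate block (the number that opens each title code, as a random effect, consensus correlation -0.0778), 6 genes rose and 15 fell, and only Clasp2 among the 22 lost its call (-0.29, limma adjusted p = 0.0504). What that number marks is not stated in the labels.

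Several genes that did not pass changed sign around zero. Cep192 was -0.018 with array medians subtracted and -0.015 to 0.029 over the fits that left out 1 array, Ckap5 -0.15 to 0.096 and Tubg1 -0.0070 to 0.16. Numa1 was 0.037 after another quantile normalization, 0.0059 with the block and -0.12 to 0.053 without single arrays, and Tpx2 was -0.082 with the mean of its probe sets. The cause was not tested. Signal over background was not used here, so dim probe sets have no stated floor.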
